A study of Mus musculus with 6 samples.

Results

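Pre-mRNA splicing factors, 3′ end processing factors and RNA helicases carry a transcript from its first spliced intron to its export. The spliceosome assembles on each intron from small nuclear ribonucleoproteins (snRNPs), among them the U2 snRNP that reads the branch point. Serine/arginine-rich (SR) proteins and heterogeneous nuclear ribonucleoproteins (hnRNPs) bind the pre-mRNA and decide which exons are used, and DEAD box and DEAH box helicases remodel the RNA at almost every step. In T cells this machinery is known for the exon choices that follow activation, such as the loss of variable exons from CD45, and for the larger RNA output of a dividing cell. To describe it in cells polarized toward Tregs without steroid receptor coactivator 2 (SRC2, encoded by Ncoa2), genes were taken by their symbols, those beginning with Srsf, Sf3, Hnrnp, Rbm, Prpf, Snrp, Lsm, Cpsf, Cstf, Ddx or Dhx. This gave 31 of the 2387 genes of the deposited table, 1.3% of its rows, and the GENCODE M21 annotation holds 189 protein-coding genes with such symbols. Of all 21951 protein-coding genes in that annotation, 2177 were rows of the table, which is the background for the counts of annotated genes below.

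Naive CD4+ T cells came from spleens of SRC2fl/fl/Foxp3YFP-Cre mice (3 libraries) and of Foxp3YFP-Cre mice (3 libraries), each library from a different mouse. The mice were on the C57BL/6j background and, as the study states for experiments other than EAE, 6 to 10 weeks old. Both genotypes carry the YFP-Cre allele at Foxp3, so in SRC2fl/fl/Foxp3YFP-Cre cultures Ncoa2 is deleted only as a cell turns on Foxp3, and cells that never do so keep the gene. All 6 cultures were stimulated with antibodies to CD3 and CD28 for 36 hours with TGFβ at 5 ng/ml and antibodies to IL-4 and IFNγ, and bulk RNA-seq was done with no sorting step described. Each genotype has 1 deposited value per gene, a mean that the authors made in CPM, read counts scaled to library size, with no value per library, so no SD, no interval and no test could be given, and the depth of each library is unknown here. In bulk RNA, fewer cells of a type and less RNA per cell cannot be told apart.

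Every row of the table has an authors' P value below 0.05, so the table had already been chosen for a difference between the genotypes and holds no gene with a log2 ratio near 0. A gene outside it was taken neither as changed nor as unchanged. Ncoa2 had a mean of 127 CPM in SRC2fl/fl/Foxp3YFP-Cre cultures, against 164 CPM in Foxp3YFP-Cre cultures, a log2 ratio of -0.36, so the targeted gene was lower but still measured. Of the markers listed for each cell type, the table held 1 of 9 for T cells (Cd28), 3 of 5 for Tregs, 1 of 7 for myeloid cells, 1 of 6 for dendritic cells, 4 of 4 for MHC class II and 2 of 7 for mast cells and basophils, and none of 6 for B cells, 2 for CD8 T cells and 2 for NK cells. The 3 Treg markers summed to 277 CPM in SRC2fl/fl/Foxp3YFP-Cre cultures, against 467 CPM in Foxp3YFP-Cre cultures, all 3 lower, with Foxp3 at 42.4 CPM in SRC2fl/fl/Foxp3YFP-Cre cultures, against 82.5 CPM in Foxp3YFP-Cre cultures. The 4 genes of the MHC class II list summed to 104 CPM in SRC2fl/fl/Foxp3YFP-Cre cultures, against 62.4 CPM in Foxp3YFP-Cre cultures, all 4 higher. Cd74, the gene of the invariant chain and not of a class II chain itself, made up most of this sum. Its level was 75.3 CPM in SRC2fl/fl/Foxp3YFP-Cre cultures, against 55.9 CPM in Foxp3YFP-Cre cultures. In the same order, H2-Eb1 had 12.1 CPM against 5.99 CPM, H2-Aa 8.91 CPM against 0.360 CPM and H2-Ab1 7.39 CPM against 0.157 CPM. Lyz2, the myeloid marker, had 45.4 CPM in SRC2fl/fl/Foxp3YFP-Cre cultures, against 0.310 CPM in Foxp3YFP-Cre cultures. The 2 mast cell and basophil markers summed to 18.98 CPM in SRC2fl/fl/Foxp3YFP-Cre cultures, against 1.47 CPM in Foxp3YFP-Cre cultures, and Zbtb46, the dendritic cell marker, had 3.22 CPM in SRC2fl/fl/Foxp3YFP-Cre cultures, against 2.05 CPM in Foxp3YFP-Cre cultures. Cd28 had 179.6 CPM in SRC2fl/fl/Foxp3YFP-Cre cultures, against 256 CPM in Foxp3YFP-Cre cultures. These lists moved with the genotype, and their part in the values below was not tested. Cd4 and the Cd3 genes were not among the rows analysed here, so the labelled cell type could not be checked against them.

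The 31 genes split into 21 with a higher mean in SRC2fl/fl/Foxp3YFP-Cre cultures and 10 with a lower mean. Over all 2387 rows 69.2% were higher and 30.8% were lower, and the members' shares, 67.7% higher, lay near that background. The members differed by little. Their log2 ratios ran between -0.35 and 0.60, with a median of 0.32 against 0.33 over all rows, and the median size without the sign was 0.32 against 0.42 over all rows. At the fold change of 1.4 that the study used, 4 members were higher and 0 were lower, where 26.3% of all rows were higher and 14.1% were lower past that fold. With every log2 ratio set relative to the table's median of 0.33, 12 members lay above it and 19 below, since 9 of the higher members had a log2 ratio between 0 and that median.

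**Figure D1:**
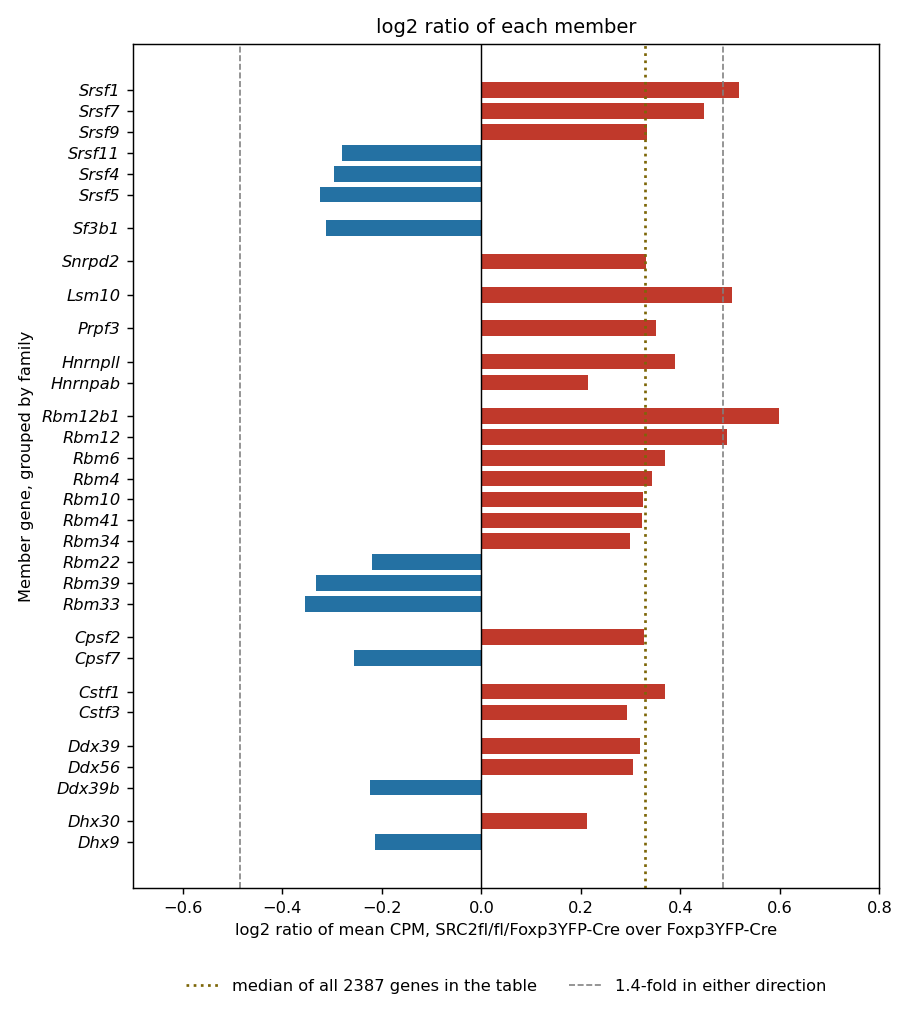
Horizontal bars give the log2 ratio of the authors' mean CPM, SRC2fl/fl/Foxp3YFP-Cre over Foxp3YFP-Cre, for each of the 31 genes, red where higher and blue where lower, with dashed lines at 1.4-fold and a dotted line at the median of all 2387 genes. Only Rbm12b1, Srsf1, Lsm10 and Rbm12 reach the dashed line on the right and no gene reaches the one on the left, and 9 of the red bars end short of the dotted line and turn negative when centred on it.

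The SR proteins held both directions in equal number, 3 higher and 3 lower, and kept them when centred on the table's median. SR proteins bind exonic enhancers through RNA recognition motifs and contact the spliceosome through their arginine/serine-rich (RS) domains. Of 11 annotated Srsf genes 6 were in the table, where 2177 of all 21951 protein-coding genes were. Srsf1, the founding member of the family, whose loss in mouse T cells is known to lead to autoimmunity, had 361 CPM in SRC2fl/fl/Foxp3YFP-Cre cultures, against 252 CPM in Foxp3YFP-Cre cultures, a log2 ratio of 0.52. Srsf7, which couples splicing to mRNA export, had 128 CPM in SRC2fl/fl/Foxp3YFP-Cre cultures, against 93.9 CPM in Foxp3YFP-Cre cultures, a log2 ratio of 0.45. Srsf9, another splice site selector, had 59.4 CPM in SRC2fl/fl/Foxp3YFP-Cre cultures, against 47.1 CPM in Foxp3YFP-Cre cultures, a log2 ratio of 0.33 that lay only 0.0051 above the table's median. These 3 were the higher SR genes.

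Srsf5, Srsf4 and Srsf11 were the lower ones, and all were close in size. Srsf5 had 232 CPM in SRC2fl/fl/Foxp3YFP-Cre cultures, against 290.2 CPM in Foxp3YFP-Cre cultures, a log2 ratio of -0.32. Srsf4 had 84.2 CPM in SRC2fl/fl/Foxp3YFP-Cre cultures, against 103 CPM in Foxp3YFP-Cre cultures, a log2 ratio of -0.30. Srsf11, an SR-related protein that acts with U2AF at the 3′ splice site, had 216 CPM in SRC2fl/fl/Foxp3YFP-Cre cultures, against 263 CPM in Foxp3YFP-Cre cultures, a log2 ratio of -0.28. The 6 genes in the table summed to 1080.1 CPM in SRC2fl/fl/Foxp3YFP-Cre cultures, against 1049 CPM in Foxp3YFP-Cre cultures, a log2 ratio of 0.04. The other annotated Srsf genes were not in the table, so the level of the whole family was not measured. Srsf4 shares 43.0% of its exonic bases with an annotated antisense transcript, Gm12992, and Srsf5 shares 11.2% of its 50-base words with other genes, among them Gm12966. How the authors' counting treated strand is not given in the sources used here, so the value of Srsf4 is uncertain to that extent. The genes that share words with Srsf5 could take some of its reads, so its value is uncertain as well.

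The promoters of 5 of these SR genes are shown, those of the higher Srsf1 and Srsf7 and of the lower Srsf5, Srsf4 and Srsf11. Each is the 250 bases before the start site on the gene's own strand, from RefSeq on GRCm38.p6. Capitals mark the exact letters CCGGAAG or their reverse complement, a form of the site bound by ETS family factors. Srsf1 lies at chr11:88047123-88047372 (plus strand), Srsf7 at chr17:80207306-80207555 (minus strand), Srsf5 at chr12:80945249-80945498 (plus strand), Srsf4 at chr4:131873387-131873636 (plus strand) and Srsf11 at chr3:158036607-158036856 (minus strand).
Srsf1: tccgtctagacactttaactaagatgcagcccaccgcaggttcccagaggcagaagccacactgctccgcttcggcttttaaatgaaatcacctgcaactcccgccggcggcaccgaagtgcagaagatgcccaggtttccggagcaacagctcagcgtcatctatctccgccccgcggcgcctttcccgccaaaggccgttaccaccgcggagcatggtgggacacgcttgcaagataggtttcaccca
Srsf7: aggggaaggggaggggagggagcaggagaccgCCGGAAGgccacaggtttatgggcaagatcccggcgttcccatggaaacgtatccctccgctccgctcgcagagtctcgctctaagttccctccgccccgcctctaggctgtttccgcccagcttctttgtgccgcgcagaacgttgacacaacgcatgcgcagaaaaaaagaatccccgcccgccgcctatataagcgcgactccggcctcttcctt
Srsf5: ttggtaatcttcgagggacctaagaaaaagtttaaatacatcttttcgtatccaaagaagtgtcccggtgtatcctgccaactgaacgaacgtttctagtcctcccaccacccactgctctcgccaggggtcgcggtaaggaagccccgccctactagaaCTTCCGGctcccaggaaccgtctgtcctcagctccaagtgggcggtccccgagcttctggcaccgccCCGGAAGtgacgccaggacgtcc
Srsf4: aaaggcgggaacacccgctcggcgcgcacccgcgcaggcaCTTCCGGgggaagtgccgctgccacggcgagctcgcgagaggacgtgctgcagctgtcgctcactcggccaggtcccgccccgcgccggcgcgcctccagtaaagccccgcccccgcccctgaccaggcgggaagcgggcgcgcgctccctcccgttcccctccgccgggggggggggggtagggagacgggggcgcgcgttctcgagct
Srsf11: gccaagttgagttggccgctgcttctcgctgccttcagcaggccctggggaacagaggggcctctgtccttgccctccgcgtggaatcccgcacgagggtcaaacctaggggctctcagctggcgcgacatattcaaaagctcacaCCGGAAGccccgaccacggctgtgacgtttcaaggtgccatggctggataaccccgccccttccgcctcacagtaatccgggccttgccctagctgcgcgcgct
The ETS letters stand in the promoters of the lower Srsf5, at 2 places, Srsf4 and Srsf11 and of the higher Srsf7. Whether these letters bear on the direction of a gene was not tested. Srsf1 and Srsf9 hold no exact copy of these letters in this window, and other forms of the ETS site were not searched.

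The ETS letters were the motif in which the members stood farthest from other promoters. A promoter entry was found for 27 of the 31 genes, and for Ddx39, Hnrnpll, Rbm12b1 and Rbm22 none was used. On either strand, CCGGAAG stood in 10 of these 27 promoters (37.0%), against 15.9% of 1793 promoters of genes in the table and 9.12% of 17491 promoters of protein-coding genes. It stood in 6 of 9 promoters of lower members (Cpsf7, Ddx39b, Dhx9, Srsf4, Srsf5 and Srsf11) and in 4 of 18 promoters of higher members (Cstf3, Dhx30, Rbm34 and Srsf7). For the genes of the table the share was not split by direction, so these counts have no background of their own. The nearest copies began between 10 and 218 bases before the start site. The median GC content was 59.2% in the members' promoters, against 55.2% over all promoters. It was 62.0% for lower members and 58.6% for higher members, and its part in the motif shares was not tested. The GC box GGGCGG stood in 55.6% of the members' promoters and 60.8% of those of the table, against 42.7% of all, and the CCAAT box CCAAT in 29.6% of the members', 37.6% of the table's and 36.3% of all. TGGAAA, the core that NFAT factors bind, stood in 18.5% of the members' promoters, 13.9% of those of the table and 17.3% of all. AAAGGTCA, the element that NR4A receptors bind as monomers, was in 0 of the 27 promoters, against 0.558% of those of the table and 1.13% of all, and TGACGTCA, the CRE, was in 0, against 3.29% and 2.01%. The E-box CACGTG was in 1 (3.7%), against 9.04% of the table's and 6.64% of all, and TATAAA in 2 (7.41%), against 6.13% and 12.4%. These are matches of letters, chosen with results of these data known, and no binding was measured in this table.

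**Figure D2:**
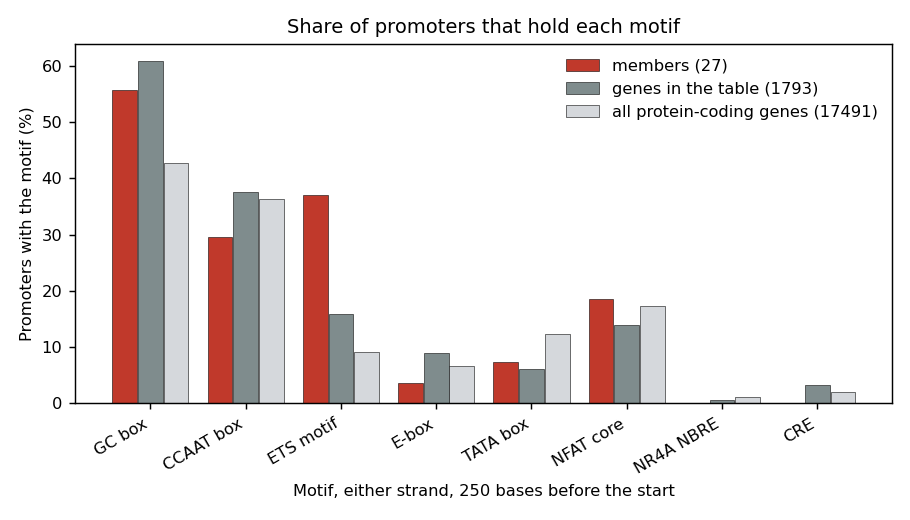
Bars give the percentage of promoters that hold each motif on either strand within 250 bases before the start, for members, for genes in the table and for all protein-coding genes. The ETS motif is in 37.0% of the members' promoters, 15.9% of those of the table and 9.12% of all, while the bars of the other motifs lie closer together.

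Of the Sf3, Snrp, Lsm and Prpf genes, the U2 subunit Sf3b1 was lower, and Snrpd2, Lsm10 and Prpf3 were higher, also relative to the table's median. Sf3b1 is the subunit that clamps the branch point. Its level was 435 CPM in SRC2fl/fl/Foxp3YFP-Cre cultures, against 539 CPM in Foxp3YFP-Cre cultures, a log2 ratio of -0.31. No other of the 9 annotated Sf3 genes was in the table. Snrpd2, a protein of the Sm ring around each spliceosomal snRNA, had 45.3 CPM in SRC2fl/fl/Foxp3YFP-Cre cultures, against 36.0 CPM in Foxp3YFP-Cre cultures, a log2 ratio of 0.33 that was 0.0034 above the table's median. Prpf3, a protein of the U4/U6 snRNP, had 42.9 CPM in SRC2fl/fl/Foxp3YFP-Cre cultures, against 33.6 CPM in Foxp3YFP-Cre cultures, a log2 ratio of 0.35. Lsm10, a subunit of the U7 snRNP that processes the 3′ ends of histone mRNAs, had the lowest CPM of all members. Its level was 10.5 CPM in SRC2fl/fl/Foxp3YFP-Cre cultures, against 7.39 CPM in Foxp3YFP-Cre cultures, a log2 ratio of 0.50 that was under the 1.4-fold line with 1 CPM added to both means. Snrpd2 shares 11.7% of its 50-base words with Gm10120 and Gm5449, which could take some of its reads.

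Both hnRNP genes in the table were higher, of 20 annotated, although Hnrnpab lay below the table's median and turns lower when centred on it. Hnrnpll, which in mouse and human T cells represses the variable exons of CD45 after activation, had 186 CPM in SRC2fl/fl/Foxp3YFP-Cre cultures, against 142 CPM in Foxp3YFP-Cre cultures, a log2 ratio of 0.39. Hnrnpab, an abundant RNA-binding protein of the A/B type, had 803 CPM in SRC2fl/fl/Foxp3YFP-Cre cultures, against 692 CPM in Foxp3YFP-Cre cultures, a log2 ratio of 0.21. Its level per length was the highest of all members, 289 CPM per kilobase of exon in SRC2fl/fl/Foxp3YFP-Cre cultures, against 249 CPM per kilobase in Foxp3YFP-Cre cultures. The next by this measure in SRC2fl/fl/Foxp3YFP-Cre cultures were Ddx39b, with 69.4 CPM per kilobase in SRC2fl/fl/Foxp3YFP-Cre cultures, against 81.1 in Foxp3YFP-Cre cultures, and Srsf1, with 63.2 in SRC2fl/fl/Foxp3YFP-Cre cultures, against 44.1 in Foxp3YFP-Cre cultures. In Foxp3YFP-Cre cultures Srsf5, Rbm39 and Sf3b1 stood above Srsf1. Srsf5 had 58.1 CPM per kilobase in SRC2fl/fl/Foxp3YFP-Cre cultures, against 72.8 in Foxp3YFP-Cre cultures. Rbm39 had 51.1 CPM per kilobase in SRC2fl/fl/Foxp3YFP-Cre cultures, against 64.3 in Foxp3YFP-Cre cultures, and Sf3b1 had 38.2 in SRC2fl/fl/Foxp3YFP-Cre cultures, against 47.4 in Foxp3YFP-Cre cultures. Of the exonic bases of Hnrnpab 29.1% overlap Phykpl on the other strand.

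**Figure D3:**
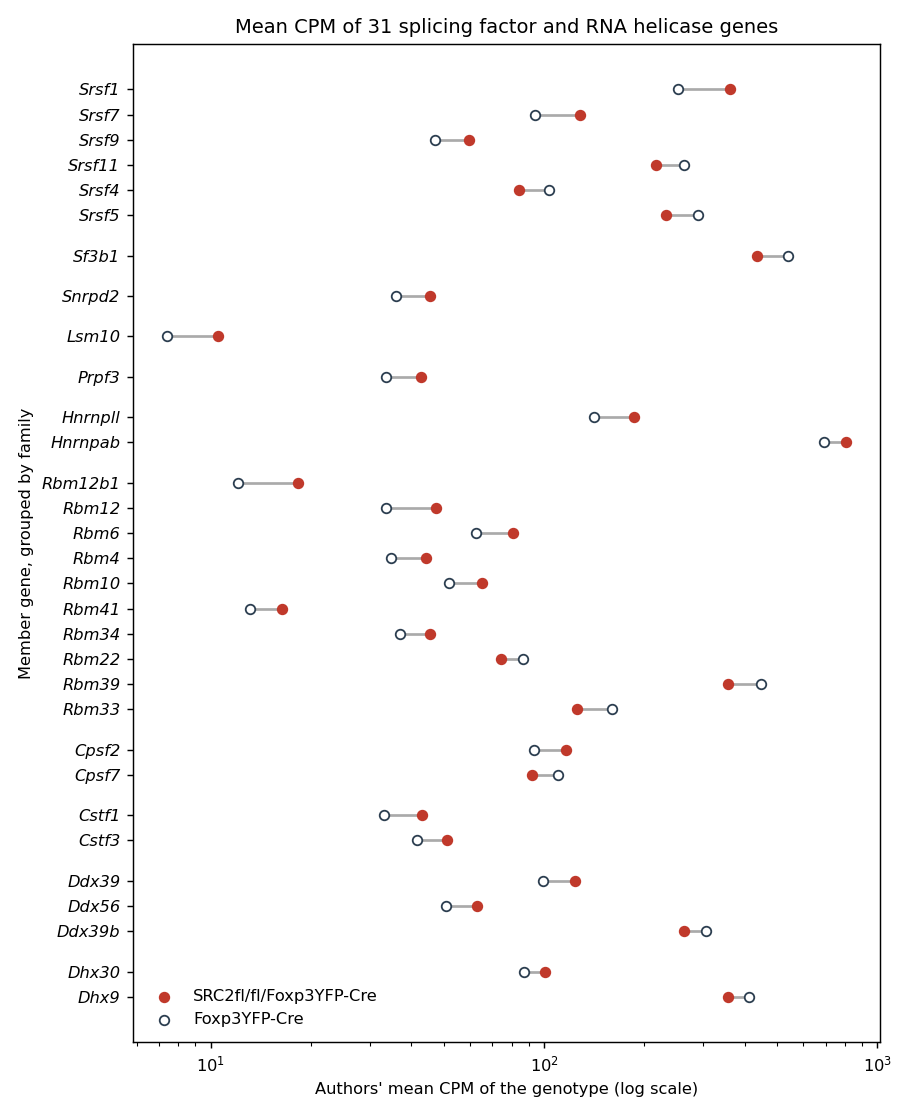
Points give the authors' mean CPM on a log axis for each of the 31 genes, filled red for SRC2fl/fl/Foxp3YFP-Cre and open for Foxp3YFP-Cre, grouped by family, with a grey line joining the genotypes. The means run from 7.39 CPM (Lsm10 in Foxp3YFP-Cre cultures) to 803 CPM (Hnrnpab in SRC2fl/fl/Foxp3YFP-Cre cultures), and the 2 points of a gene lie close together beside that range.

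The RNA-binding motif (RBM) genes were the largest group, 10 of 47 annotated, with 7 higher and 3 lower, of which Rbm10, Rbm34 and Rbm41 turn lower when centred on the table's median. Rbm39, a relative of U2AF that takes part in 3′ splice site choice, had 355 CPM in SRC2fl/fl/Foxp3YFP-Cre cultures, against 447 CPM in Foxp3YFP-Cre cultures, a log2 ratio of -0.33. Rbm33, an RNA-binding protein known in human cells for mRNA export, had 125 CPM in SRC2fl/fl/Foxp3YFP-Cre cultures, against 160.3 CPM in Foxp3YFP-Cre cultures, the lowest log2 ratio of all members at -0.35. Rbm22, a component of the catalytic spliceosome, had 74.1 CPM in SRC2fl/fl/Foxp3YFP-Cre cultures, against 86.3 CPM in Foxp3YFP-Cre cultures, a log2 ratio of -0.22. These were the lower RBM genes.

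The highest log2 ratio of all members was that of Rbm12b1, 0.60, with 18.2 CPM in SRC2fl/fl/Foxp3YFP-Cre cultures, against 12.0 CPM in Foxp3YFP-Cre cultures. Rbm12b1 (chromosome 4, 12140264 to 12146731, GRCm38) shares 63.1% of its 50-base words with its neighbor Rbm12b2, so the reads of the pair cannot be fully told apart. Rbm12 had 47.4 CPM in SRC2fl/fl/Foxp3YFP-Cre cultures, against 33.7 CPM in Foxp3YFP-Cre cultures, a log2 ratio of 0.49 that, like that of Lsm10, was under the 1.4-fold line with 1 CPM added. It also shares sequence with Cpne1 and Gm28036 on the same strand. Its overlaps with these genes add up to 38.7% of its exonic bases, where a base inside both is counted for each. Rbm12 lies 35.3 kb from Rbm39 on chromosome 2, and the neighbors differed in opposite directions. The remaining RBM genes were close to the median of the table. Rbm6, a regulator of alternative exons, had a log2 ratio of 0.37, Rbm4, a regulator that competes with SR proteins for exons, 0.34, Rbm10, another exon regulator, 0.32, Rbm41, which in human cells binds minor spliceosome RNA, 0.32, and Rbm34 0.30. Rbm4 and Rbm10 share 62.6% and 41.0% of their 50-base words with other annotated genes. Over the 10 RBM genes the summed level was 872 CPM in SRC2fl/fl/Foxp3YFP-Cre cultures, against 938 CPM in Foxp3YFP-Cre cultures, lower although 7 of the 10 genes were higher.

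Of the Cpsf and Cstf genes of 3′ end processing 4 of 11 were in the table, 3 higher and 1 lower, with Cpsf2 and Cstf3 turning lower when centred on the median. Cpsf7, a subunit of cleavage factor I that helps choose among poly(A) sites, had 92.0 CPM in SRC2fl/fl/Foxp3YFP-Cre cultures, against 110 CPM in Foxp3YFP-Cre cultures, a log2 ratio of -0.26. Cpsf2, of the complex that reads and cuts the poly(A) signal, had 117 CPM in SRC2fl/fl/Foxp3YFP-Cre cultures, against 93.0 CPM in Foxp3YFP-Cre cultures, a log2 ratio of 0.33. Both cleavage stimulation factor genes, whose products bind the downstream element, were higher. Cstf1 had 42.9 CPM in SRC2fl/fl/Foxp3YFP-Cre cultures, against 33.2 CPM in Foxp3YFP-Cre cultures, a log2 ratio of 0.37, and Cstf3 had 51.0 CPM in SRC2fl/fl/Foxp3YFP-Cre cultures, against 41.7 CPM in Foxp3YFP-Cre cultures, a log2 ratio of 0.29.

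Of the Ddx and Dhx helicases 5 of 53 annotated were in the table, none with a log2 ratio above 0.32. The 2 with the highest CPM were lower and the 3 others were higher, though all 3 turn lower when centred on the table's median. Dhx9, a nuclear helicase that unwinds structured RNA, had 356 CPM in SRC2fl/fl/Foxp3YFP-Cre cultures, against 412 CPM in Foxp3YFP-Cre cultures, a log2 ratio of -0.21. Ddx39b, also called UAP56, acts in spliceosome assembly and in mRNA export. Its level was 263 CPM in SRC2fl/fl/Foxp3YFP-Cre cultures, against 307 CPM in Foxp3YFP-Cre cultures, a log2 ratio of -0.22. Its paralog Ddx39, which can take its place in export complexes, went the other way, with 124 CPM in SRC2fl/fl/Foxp3YFP-Cre cultures, against 99.5 CPM in Foxp3YFP-Cre cultures and a log2 ratio of 0.32. Of the exonic bases of Ddx39, 17.4% overlap Adgre5 on the other strand. Ddx56, a nucleolar helicase of ribosome assembly, had a log2 ratio of 0.31, and Dhx30, known for mitochondrial RNA and ribosome assembly, one of 0.21.

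The lower members had higher CPM than most of the higher ones. All 10 lower members lay in the third of the table with the highest means, and the 10 members in the other bands were all higher, whereas 64.4% of all genes in the highest band, 74.1% in the middle band and 69.1% in the lowest band were higher. Lower members had a median of 250.2 CPM over both genotypes and higher members one of 53.2 CPM, against 34.5 CPM and 31.2 CPM for lower and higher genes of the whole table. These sets were not matched on the size of the ratio. The median log2 ratio was -0.29 for lower members and -0.45 for lower genes of the table. For higher members it was 0.33, against 0.41 for higher genes. How far the choice of the table's rows by P value shapes this contrast in level was not tested. Per kilobase of exon, the lower members had a median level of 31.3 CPM in SRC2fl/fl/Foxp3YFP-Cre cultures, against 37.0 in Foxp3YFP-Cre cultures, and the higher members one of 12.2 CPM in SRC2fl/fl/Foxp3YFP-Cre cultures, against 9.48 in Foxp3YFP-Cre cultures. Above 200 CPM, a line drawn after the values were seen, 6 of 8 members were lower (Sf3b1, Rbm39, Dhx9, Ddx39b, Srsf5 and Srsf11) and 2 were higher (Hnrnpab and Srsf1), where 55.3% of the 132 genes of the table at this level were higher. Summed over all 31 genes, the means came to 4682 CPM in SRC2fl/fl/Foxp3YFP-Cre cultures, against 4671 CPM in Foxp3YFP-Cre cultures, a log2 ratio of 0.0032. All rows of the table had a median log2 ratio of 0.49 in the lowest band and 0.25 in the highest.

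**Figure D4:**
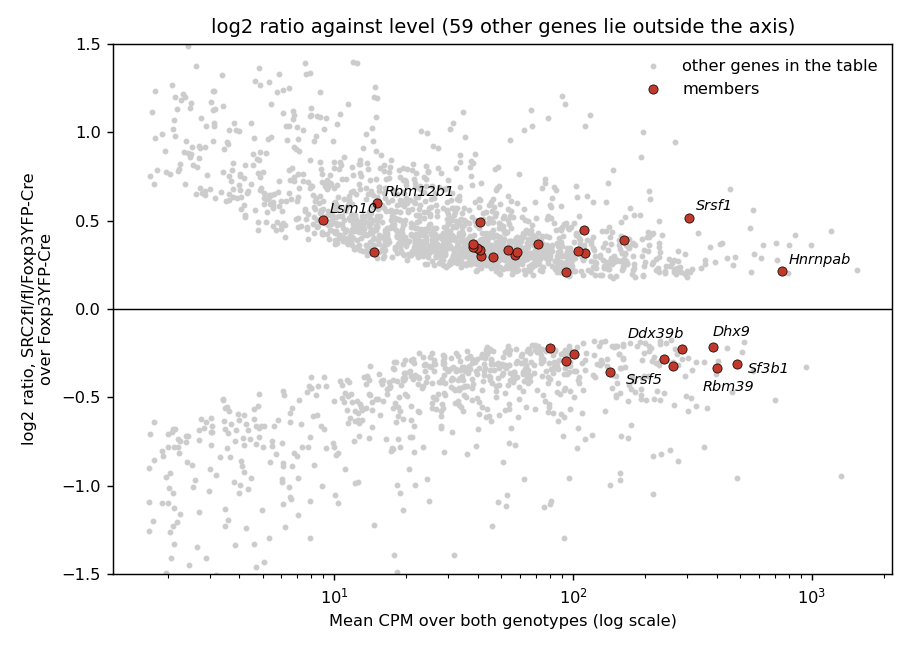
Each point is a gene, placed by its mean CPM over both genotypes on a log axis and by its log2 ratio, SRC2fl/fl/Foxp3YFP-Cre over Foxp3YFP-Cre, with the 31 members in red and the other genes of the table in grey. The band without points around 0 is where the table holds no genes, and the 10 members below 0 all lie to the right, in the third of the table with the highest means.

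A larger share of the lower members had annotated transcripts of kinds that do not code for the full protein. SR genes are known to limit their own level by splicing in an exon that triggers nonsense-mediated decay or by keeping an intron. Among the SR genes here such transcripts were annotated in both directions. The higher Srsf1, Srsf7 and Srsf9 and the lower Srsf4, Srsf5 and Srsf11 all had one classed as a target of nonsense-mediated decay. All but Srsf9 also had one classed as a retained intron. In GENCODE M21, 9 of the 10 lower members (90.0%) had at least 1 transcript classed as a retained intron, against 61.2% of the 626 lower protein-coding genes of the table. Of the higher members 13 of 21 (61.9%) had one, against 54.1% of 1551 higher genes. A transcript classed as a target of nonsense-mediated decay was annotated for 7 of the 10 lower members (70.0%), against 32.6% of lower genes of the table, and for 8 of the 21 higher members (38.1%), against 25.4% of higher genes. The lower members also had more transcripts in all, a median of 8 against 6 for the higher members, 6 for lower genes and 4 for higher genes of the table. These are features of the annotation. The table gives 1 value per gene, so which transcript was made could not be measured.

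**Figure D5:**
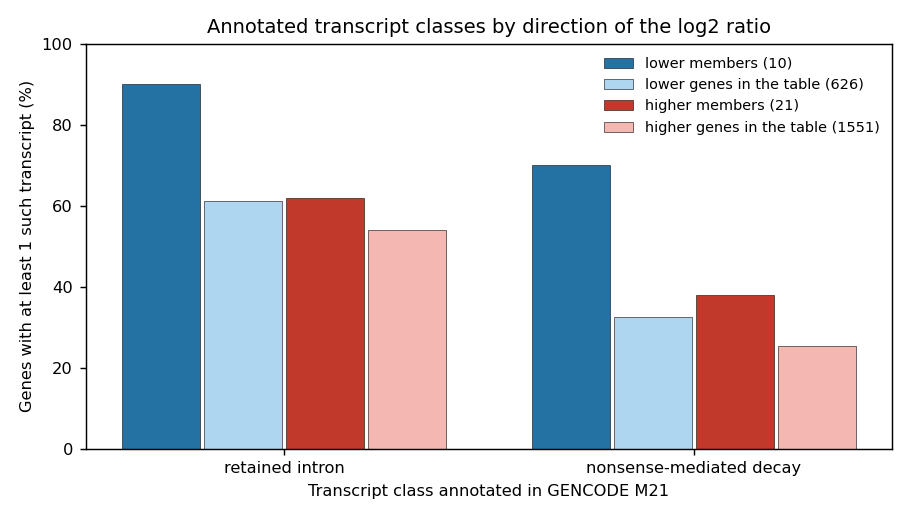
Bars give the percentage of genes with at least 1 transcript of each class in GENCODE M21, for lower and higher members and for lower and higher protein-coding genes of the table. The bars of the 10 lower members, 90.0% for retained introns and 70.0% for nonsense-mediated decay, stand above the other bars of their class.

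Outside the symbol prefixes, 146 other genes of RNA processing were listed, and 21 of them were in the table, 15 higher and 6 lower, with 3 higher and 0 lower past 1.4-fold. Over all rows 69.2% were higher and 30.8% were lower, and past 1.4-fold 26.3% were higher and 14.1% were lower. Their median log2 ratio was 0.29, against 0.33 over all rows, and 8 lay above the table's median. The snRNP assembly genes, which build the Sm ring in the cytoplasm and mature it in Cajal bodies, were all higher in the 4 of 11 that the table held, with Coil falling just below the median of the table. With 69.2% of all rows higher, a common direction in sets this small, here and for 3′ end processing below, says little about the sets. Gemin4, a subunit of the SMN complex, had 35.2 CPM in SRC2fl/fl/Foxp3YFP-Cre cultures, against 20.7 CPM in Foxp3YFP-Cre cultures, a log2 ratio of 0.77, the largest of the list. Gemin6, of the same complex, had 21.8 CPM in SRC2fl/fl/Foxp3YFP-Cre cultures, against 15.3 CPM in Foxp3YFP-Cre cultures, a log2 ratio of 0.51. The third past 1.4-fold was Ifih1, a sensor of viral RNA with a helicase domain, with 14.5 CPM in SRC2fl/fl/Foxp3YFP-Cre cultures, against 10.2 CPM in Foxp3YFP-Cre cultures and a log2 ratio of 0.51. The 6 lower genes of the list, and the higher genes given after them, were named after their values were seen. Clk1, a kinase that phosphorylates SR proteins, had 162 CPM in SRC2fl/fl/Foxp3YFP-Cre cultures, against 222 CPM in Foxp3YFP-Cre cultures, a log2 ratio of -0.45. Mbnl3, a regulator of alternative exons, had a log2 ratio of -0.42, Luc7l2, a U1-associated protein, -0.38, Ptbp2, a polypyrimidine tract binder, -0.33, Snrnp70, a core U1 protein, -0.29, and Srrm1, an SR-related coactivator of splicing, -0.29. Of the listed genes with over 100 CPM in both genotypes, 4 were lower (Clk1, Luc7l2, Snrnp70 and Srrm1) and 3 were higher (Pcbp1, Papola and Eif4a1), where Pcbp1 turns lower when centred on the table's median. Pcbp1, a poly(C)-binding protein, had the highest CPM of the list, 341 CPM in SRC2fl/fl/Foxp3YFP-Cre cultures, against 291 CPM in Foxp3YFP-Cre cultures. The 3 further genes of 3′ end processing in the table were all higher, Papola, a poly(A) polymerase, with a log2 ratio of 0.35, Clp1 with 0.26 and Nudt21, a subunit of cleavage factor I, with 0.20, and Clp1 and Nudt21 turn lower when centred. Eif4a1, a helicase of translation initiation, had a log2 ratio of 0.36. Of the 14 members with a mean over both genotypes of at least 100 CPM, 8 were lower, where 59.5% of the 341 genes of the table at that level were higher.

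Some members lie close together on a chromosome. Besides Rbm12 and Rbm39, the pair Hnrnpll and Srsf7 lies on chromosome 17 of GRCm38 with 138 kb between the genes, and both were higher, with log2 ratios of 0.39 and 0.45. No other pair lay within 200 kb.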

How the data were processed

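RNA-seq of 6 CD4+ cell cultures was analysed from the table the authors deposited. Alignment was to GRCm38, with quantification by Partek E/M inside Partek Flow and scaling to CPM, with a small offset added to each value. The aligner and annotation: not given in the sources used here. CPM values that the authors deposited are 1 least-squares mean per genotype. The deposited column headed as total counts equals, in each of the 2387 rows, both means added and multiplied by 3 (tolerance 1e-06), so it holds summed CPM. The authors' ratio, fold change, P value and adjusted P columns were used for no result; the deposited p-value was read only to find that every row lies below 0.05. Per-library depth is unknown, and a shift in a few abundant genes moves the CPM of all others.

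The log2 ratio of the means (SRC2fl/fl/Foxp3YFP-Cre over Foxp3YFP-Cre) was computed without a pseudocount and no test was run. The code was run on simulated means with known ratios and no noise, which checks the arithmetic alone. Members and lists were chosen with earlier results of these data known. Named were members past 1.4-fold, the extremes and most abundant gene of each family, families of up to 5 in full, and listed genes past 1.4-fold. Exonic length, overlaps and 50-base words shared with other genes came from GENCODE M21 and promoters from RefSeq (GRCm38.p6), the first entry per gene. Python 3.11.15, numpy 2.4.6, pandas 2.3.3 and matplotlib 3.10.9 were used.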

Additional observations from a re-analysis of the deposited data

How the results depend on the processing

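No paired analysis was possible because only genotype means were used, which carry no replicate numbers, and for the same reason no library could be left out. Of the 21 higher and 10 lower members, 12 were higher and 19 lower when log2 ratios were centred on the median of all rows (0.33), where 0 were higher and 10 lower past 1.4-fold and the median was -0.010. The table is a selection of genes, so its median is no measure of a scaling error. Divided by the column sums of the table, a shift of 0.09, the 4 members higher past 1.4-fold became 1 (Rbm12b1), as also at a fold of 1.5 (Rbm12b1) and with 5 CPM added to both means (Srsf1). They became 2 with 1 CPM added, with a mean of at least 20 CPM asked of the higher genotype, and without the 9 members that share at least 10% of their 50-base words or exonic bases with other genes, a choice made after seeing the data. At a fold of 1.2 there were 19 higher and 6 lower, and at a fold of 2 there were 0 higher. Without those 9 members 14 were higher and 8 lower, and with at least 20 CPM 18 were higher and 10 lower, with a median of 0.30 in both. By column sums the counts by direction were 21 and 10 and the median 0.23. Centring changed the sign of 9 members, column sums and added CPM that of none.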
